A study of Mus musculus with 24 samples.

Results

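Wild-type (WT) lungs of fibrosis-prone mouse strains were compared with WT lungs of fibrosis-resistant strains, which sets the strains side by side without the transgene. The comparison took 7 of the 24 arrays of the series, each hybridised with right-lobe lung RNA of a single sample: 4 prone WT mice (1 of A/J, 1 of AKR/J and 2 of C57BL/6J) and 3 WT mice of the resistant strains 129 (labelled S129), BALB/cJ and C3H (1 each). The other 17 arrays held TGF-β1 transgenic (TG) mice, 8 of the prone strains (3 A/J, 3 AKR/J, 2 C57BL/6J) and 9 of the resistant strains (3 of each). They supplied most of the estimate of the spread between mice of a group and a second comparison of the same strains. All 24 mice, WT included, had taken doxycycline in their drinking water for 2 weeks, the drug that turns the transgene on in TG mice. The labels give neither the promoter that drives the transgene nor the age of the mice. The prone and resistant names are those of the series design. A numeric fibrosis code attached to each sample, taken with the key printed beside it, assigns the names in reverse, and if that code were right every sign below would turn.

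The lung lines its alveoli with type 1 and type 2 epithelial cells and its airways with secretory and ciliated cells, and it holds macrophages, capillary endothelium and fibroblasts. TGF-β1 acts through serine-threonine kinase receptors and Smad proteins, and in fibroblasts it raises collagen and other matrix genes. Inbred mouse strains differ in how much scar tissue their lungs form under such a stimulus, and a difference that is present before the stimulus can lie in any of these cells. Inbred strains are also known to carry deletions and divergent copies of immune genes, among them the major histocompatibility complex (MHC), the NLRP1 sensors and interferon-inducible families. In whole lung tissue, fewer cells of a type and less RNA per cell cannot be told apart.

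Values are log2 intensities, so a difference of 1 is a 2-fold difference on the array. The array medians lay between 7.759 and 7.835, and 13499 genes were read. Strain names were checked in part against known natural mutations. H2-Ea, an MHC class II chain that strains of the b haplotype do not transcribe, read 12.66 in A/J, 12.77 in AKR/J and 6.69 and 6.61 in C57BL/6J, against 6.78 in 129, 12.21 in BALB/cJ and 12.95 in C3H. Nnt, the gene of a mitochondrial proton pump in which C57BL/6J carries a known deletion, read 9.60 and 9.58 in C57BL/6J and 10.05 to 10.54 in the other 5 WT mice. Lung identity was checked on Sftpc, the surfactant protein of type 2 cells (14.28 to 14.43 in the 7 WT mice), and on Scgb1a1, the secretoglobin of club cells (14.01 to 14.14). Some WT samples stood apart in markers of particular cells or tissues. The mean level of 13 platelet genes was 9.80 in the BALB/cJ mouse and 8.56 to 8.92 in the other 6. The mean of 8 adipose tissue genes was 8.48 in the C3H mouse and 7.51 to 8.19 in the others. Of these 8 genes 0 were called in limma and 5 had an unadjusted p under 0.05, with 1 above 0 and a median prone minus resistant difference of -0.44. The mean of 12 airway secretory genes was 10.32 in the 129 mouse and 10.98 to 11.50 in the others, although Scgb1a1 was not low in that mouse (14.08). The mean of 11 circadian clock genes was 10.46 in AKR/J and 10.20 in BALB/cJ, and 9.46 to 9.72 in the rest.

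Of the 13499 genes, 100 (0.741%) differed between WT prone and WT resistant mice at an adjusted p under 0.05 in limma, 55 of them higher (0.407%) and 45 lower (0.333%) in the prone strains. Each strain mean had equal weight. The median difference over all genes was 0.00, and 1432 genes had an unadjusted p under 0.05. The median size of the difference among the 100 genes was 0.54, and 14 genes reached 2-fold, 7 in each direction. In 48 of the 100 genes the 4 prone mice did not overlap with the 3 resistant mice, 28 of them above and 20 below, where 5.15% of all genes were without overlap (2.59% above and 2.56% below). In the other 52 genes the sets overlapped. Of the 100 genes, 98 also varied among the 6 WT strain means in limma's F test, which called 736 genes (5.45%). Both the overlap and the F test use the WT values that picked the 100 genes, so neither is separate support. The 2 C57BL/6J mice differed by a median of 0.09 over all genes and of 0.12 over the 100. With the 6 strain means as the unit, and in the 7 WT arrays taken alone, limma called 0 genes (475 and 669 at an unadjusted p under 0.05), so the calls speak of these mice of these 6 strains and rest on the spread measured mostly in TG mice.

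**Figure D1:**
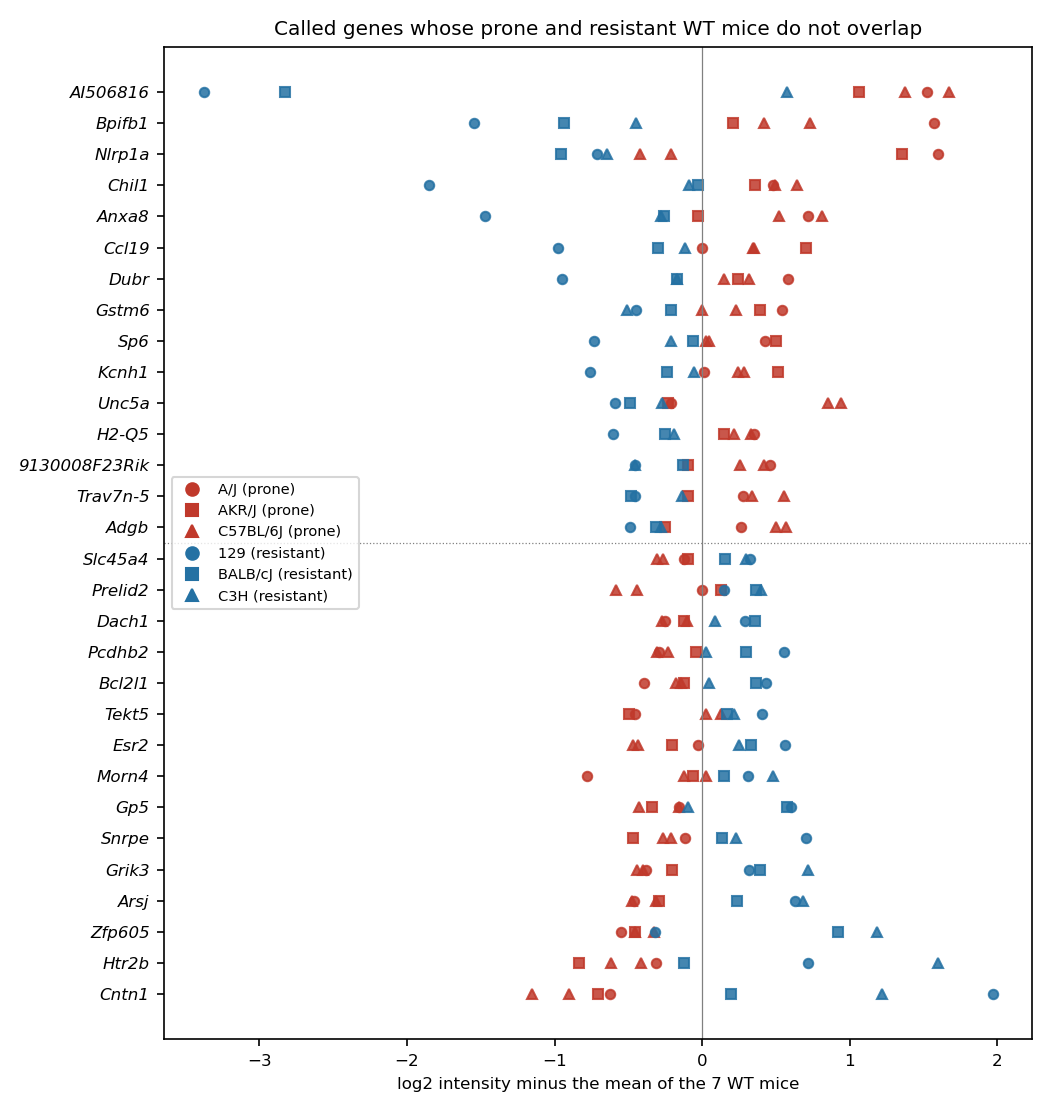
Level of each gene in the 7 WT mice, as log2 intensity minus the mean of the 7 mice, for the 15 genes of largest called difference in each direction whose sets do not overlap. Red symbols are prone and blue symbols resistant mice, with 1 symbol per mouse and the shape naming the strain. The 129 mouse lies farthest out in many rows, such as Chil1 (11.32, against 13.08 to 13.81 in the others), and AI506816 spans the widest range.

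The widest difference was in AI506816, a transcript with no assigned function. It read 9.97 in A/J, 9.51 in AKR/J and 10.12 and 9.82 in C57BL/6J, against 5.07 in 129, 5.62 in BALB/cJ and 9.02 in C3H. The C3H mouse lay close to the prone mice, and the other 2 resistant mice lay far below. The difference was 3.25 ± 0.40 (SE; 9.48-fold, adjusted p = 0.00067), and in TG mice it was 2.86 ± 0.25 (adjusted p = 4.5e-06).

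Chil1, Bpifb1 and Bpifb5, which encode secreted proteins, and Anxa8 were higher in the prone strains. Chil1, a chitinase-like protein made by type 2 cells and macrophages, read 13.65 in A/J, 13.53 in AKR/J and 13.81 and 13.66 in C57BL/6J, against 11.32 in 129, 13.14 in BALB/cJ and 13.08 in C3H. All 4 prone mice lay above the resistant mice, among which 129 was by far the lowest. The difference was 1.13 ± 0.11 (2.18-fold, adjusted p = 3.4e-05), and without the 129 mouse it was 0.53 (adjusted p = 0.072). Bpifb1, a secreted protein of airway mucous and serous cells, read 12.49 in A/J, 11.13 in AKR/J and 11.65 and 11.34 in C57BL/6J, against 9.37 in 129, 9.98 in BALB/cJ and 10.47 in C3H. The sets did not overlap, and the difference was 1.76 ± 0.28 (3.4-fold, adjusted p = 0.0051), or 1.48 without the 129 mouse (adjusted p = 0.06). Its neighbour Bpifb5 was higher in A/J and AKR/J, at 9.42 in each, than in C57BL/6J (8.63 and 8.26), against 8.40 to 8.41 in the 3 resistant mice. Its difference of 0.69 (adjusted p = 0.0028) kept its call with any WT mouse left out. Anxa8, a calcium-dependent phospholipid-binding protein, read 9.07 in A/J, 8.32 in AKR/J and 9.16 and 8.87 in C57BL/6J, against 6.88 in 129, 8.09 in BALB/cJ and 8.07 in C3H. Its difference of 1.12 ± 0.16 (adjusted p = 0.0025) was 0.72 without the 129 mouse (adjusted p = 0.13).

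The marker lists of these cells held few calls. Among 12 genes of club and other airway secretory cells, Bpifb1 alone was called, and the list's median difference was 0.18, against 0.00 over all genes. Scgb1a1 differed by -0.03 ± 0.08 (adjusted p = 0.96). Bpifa1, another secreted airway protein, read 7.19 in 129 and 11.06 to 12.97 in the other 6 mice (1.22 ± 0.46, adjusted p = 0.32), and Scgb3a1 read 11.14 in 129 and 12.29 to 13.05 in the others (0.67 ± 0.26, adjusted p = 0.33). Both were thus lowest in the mouse in which Bpifb1 and Chil1 were lowest. Other markers of these cells were not low in the 129 mouse. Scgb1a1 read 14.08 in it and 14.01 to 14.14 in the other 6, and Scgb3a2 read 8.79 in it and 8.53 to 9.24 in the other 6. The low list mean of the 129 mouse therefore does not describe every member, and its part in the Bpifb1 difference was not tested. Among 18 genes of alveolar type 2 cells, Chil1 alone was called (median difference 0.02), and among 11 genes of type 1 cells 0 were called in limma, with 0 at an unadjusted p under 0.05 (median -0.04).

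Genes of motile cilia lay on the higher side. Of 16 ciliated cell markers 0 were called in limma, 8 had an unadjusted p under 0.05, all 16 differences were above 0 and their median was 0.23. The mean level of the 16 was 9.04 in A/J, 8.49 in AKR/J and 8.97 and 8.85 in C57BL/6J, against 8.61 in 129, 8.56 in BALB/cJ and 8.59 in C3H. A/J and C57BL/6J lay above the resistant mice and AKR/J below them. Foxj1, the transcription factor of ciliated cells, differed by 0.21 ± 0.09 (adjusted p = 0.36), and Rsph4a, a radial spoke protein, by 0.39 ± 0.16 (adjusted p = 0.36). In TG mice the list's median was -0.15, with 4 members lower. Among the called genes outside the list, chosen after their values were seen, were Gmnc, a regulator of multiciliated cell fate (0.53), the dynein regulatory complex members Drc3 (0.47) and Iqcg (0.54), Cfap221 (0.36), and Adgb, which in mice is needed for the sperm flagellum (0.54). Gmnc read 7.50 in A/J, 7.24 in AKR/J and 7.81 and 7.64 in C57BL/6J, against 6.88 in 129, 7.10 in BALB/cJ and 6.87 in C3H, without overlap. Its adjusted p was 0.011, and 0.062 without the 129 mouse. The other 4 lost their calls without the 129 mouse (adjusted p between 0.059 and 0.17) and without the A/J mouse, each without at least 1 C57BL/6J mouse, and Drc3, Iqcg and Cfap221 also without the C3H mouse. None of these 5 genes was called in TG mice (adjusted p of 0.20 to 0.98).

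Interferon-inducible genes differed in both directions. Interferons raise genes whose promoters hold the interferon-stimulated response element. Of 30 interferon-stimulated genes, 3 were called, all higher in prone mice (Ifi213, Iigp1 and Stat2), 13 had an unadjusted p under 0.05 and 26 lay above 0, with a median of 0.26. The mean level of the 30 genes was 8.98 in A/J, 8.68 in AKR/J and 9.28 and 9.27 in C57BL/6J, against 8.55 in 129, 8.75 in BALB/cJ and 8.72 in C3H. AKR/J lay within the resistant range. In TG mice the median was 0.06. The core of the response element, GAAANNGAAA read on both strands, was searched in the 250 bases before each annotated start of a gene in RefSeq (GRCm38.p6). Where a gene has several annotated starts, such as Apobec3 with 2, the start with the most matches was used. The core stood in 936 of the 27025 RefSeq genes with a promoter sequence (3.46%), measured here or not. Among the 80 called genes with such a sequence it stood in 8 (10%), 7 of them higher (Ifi206, Ifi213, Ccl19, Gm12250, Gmnc, Apobec3 and Stat2) and 1 lower (Gbp2b). A match is a description of the letters and not a shown binding site. Of these 8, the promoters of 6 genes with a known interferon response are shown, 5' to 3' on the gene's strand and ending at the base before the start, with each match in capitals. They are chr1:173491319-173491568 (Ifi206, minus strand), chr1:173599273-173599522 (Ifi213, minus strand), chr11:58183593-58183842 (Gm12250, plus strand), chr10:128270248-128270497 (Stat2, plus strand), chr15:79892158-79892407 (Apobec3, plus strand) and chr3:142594597-142594846 (Gbp2b, plus strand).
Ifi206: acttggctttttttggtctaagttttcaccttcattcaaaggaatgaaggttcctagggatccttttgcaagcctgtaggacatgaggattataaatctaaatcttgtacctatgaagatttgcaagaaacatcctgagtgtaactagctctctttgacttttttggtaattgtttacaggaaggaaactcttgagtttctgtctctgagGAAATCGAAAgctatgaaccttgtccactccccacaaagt
Ifi213: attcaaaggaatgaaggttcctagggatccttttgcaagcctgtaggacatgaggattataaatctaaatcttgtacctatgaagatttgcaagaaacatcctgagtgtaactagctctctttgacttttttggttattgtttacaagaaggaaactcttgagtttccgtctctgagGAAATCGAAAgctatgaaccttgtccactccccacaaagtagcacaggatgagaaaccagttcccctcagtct
Gm12250: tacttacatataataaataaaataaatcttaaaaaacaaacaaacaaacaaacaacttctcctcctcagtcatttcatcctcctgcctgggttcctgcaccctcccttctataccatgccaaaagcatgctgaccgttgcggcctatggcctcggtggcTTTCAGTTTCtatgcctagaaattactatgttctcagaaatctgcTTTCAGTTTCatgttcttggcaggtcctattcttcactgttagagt
Stat2: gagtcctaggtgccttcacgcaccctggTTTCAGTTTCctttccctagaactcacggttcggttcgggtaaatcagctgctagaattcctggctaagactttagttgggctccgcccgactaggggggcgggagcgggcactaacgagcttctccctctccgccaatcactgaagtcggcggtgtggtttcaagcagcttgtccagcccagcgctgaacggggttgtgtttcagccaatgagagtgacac
Apobec3: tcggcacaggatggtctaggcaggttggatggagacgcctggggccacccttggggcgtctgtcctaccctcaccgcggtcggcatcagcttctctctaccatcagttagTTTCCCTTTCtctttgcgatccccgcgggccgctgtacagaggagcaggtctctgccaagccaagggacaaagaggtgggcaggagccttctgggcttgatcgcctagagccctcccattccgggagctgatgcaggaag
Gbp2b: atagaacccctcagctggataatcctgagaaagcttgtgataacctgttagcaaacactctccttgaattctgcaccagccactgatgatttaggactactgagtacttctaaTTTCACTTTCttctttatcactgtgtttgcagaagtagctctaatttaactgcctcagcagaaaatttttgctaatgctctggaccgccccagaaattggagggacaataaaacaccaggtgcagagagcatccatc

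Ifi206 and Ifi213 encode proteins of the PYHIN family of nucleic acid sensors and lie near each other on chromosome 1. Their promoters, set side by side over 217 bases, were identical at 214 of them, with a longest identical run of 135 bases. Ifi206 read 7.06 in A/J, 5.76 in AKR/J and 8.04 and 8.59 in C57BL/6J, against 5.76 in 129, 5.88 in BALB/cJ and 5.81 in C3H. The AKR/J mouse lay within the resistant range, A/J above it and both C57BL/6J mice highest. The difference was 1.23 ± 0.16 (2.34-fold, adjusted p = 0.0014) and kept its call with any WT mouse left out. Ifi213 had a similar pattern, with 7.94 in A/J, 6.63 in AKR/J and 9.33 and 9.11 in C57BL/6J, against 6.76 in 129, 7.11 in BALB/cJ and 6.33 in C3H. Its difference of 1.19 ± 0.26 (adjusted p = 0.038) lost its call when the 129, the A/J, the C3H or either C57BL/6J mouse was left out (0.99 to 1.23, adjusted p up to 0.15). Ifi209, of the same family, read 9.63 and 9.97 in C57BL/6J and 7.93 to 8.49 in the other 5 mice (0.90 ± 0.26, adjusted p = 0.15). Copies of this family are alike in sequence, so which copy a probe set measured is uncertain.

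Of the immunity-related GTPases, which attack the vacuoles of intracellular pathogens, Gm4951 read 7.63 in A/J, 7.82 in AKR/J and 9.20 and 9.14 in C57BL/6J, against 6.39 in 129, 7.99 in BALB/cJ and 7.77 in C3H. The C57BL/6J mice were above all others, the 129 mouse was below, and the other 4 mice lay between 7.63 and 7.99. The difference of 0.82 ± 0.13 (adjusted p = 0.0053) was 0.33 without the 129 mouse (adjusted p = 0.55). Its neighbour Iigp1 had the same extremes, with 9.37 and 9.28 in C57BL/6J and 7.37 in 129 (0.52 ± 0.11, adjusted p = 0.033), and read 0.16 without the 129 mouse (adjusted p = 0.83). Its call was also lost without the A/J or either C57BL/6J mouse. Gm12250 read 8.94 in A/J, 8.17 in AKR/J and 8.58 and 8.17 in C57BL/6J, against 7.31 in 129, 8.71 in BALB/cJ and 7.24 in C3H. BALB/cJ lay among the prone mice, and the difference of 0.74 ± 0.15 (adjusted p = 0.029) was 0.52 without the 129 mouse (adjusted p = 0.27), with the call also lost without the A/J, the C3H or the first C57BL/6J mouse. Stat2, a transcription factor of the interferon response, read 10.11 in A/J, 9.99 in AKR/J and 10.33 and 10.16 in C57BL/6J, against 9.57 in 129, 9.86 in BALB/cJ and 9.75 in C3H, without overlap (0.38 ± 0.08, adjusted p = 0.032). That call was lost without the 129, the C3H or the first C57BL/6J mouse (adjusted p up to 0.21). Apobec3, a cytidine deaminase that restricts retroviruses, read 10.87 and 11.08 in C57BL/6J, 9.52 in A/J and 9.38 in AKR/J, against 9.36 to 9.52 in the resistant mice (0.52 ± 0.08, adjusted p = 0.0026). It kept its call with any WT mouse left out. C57BL/6J alone was raised, and with 2 WT mice that strain was never left out whole.

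Gbp2b, a guanylate-binding protein induced by interferon-γ, went the other way. It read 6.83 in A/J, 8.45 in AKR/J and 6.84 and 7.23 in C57BL/6J, against 8.80 in 129, 8.42 in BALB/cJ and 9.15 in C3H. A/J and C57BL/6J were low, while AKR/J stood at the level of BALB/cJ. The difference was -1.35 ± 0.26 (adjusted p = 0.021), and in TG mice -1.29 ± 0.16 (adjusted p = 9.2e-05). The WT call was lost without the 129, the A/J, the C3H or the first C57BL/6J mouse (adjusted p up to 0.10). Its relative Gbp3 read 10.03 in A/J, 8.56 in AKR/J and 9.39 and 9.22 in C57BL/6J, against 8.37 to 8.78 in the resistant mice (0.67 ± 0.18, adjusted p = 0.11).

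Other genes of innate immunity and of the MHC followed. Nlrp1a, a sensor that assembles an inflammasome, read 7.47 in A/J, 7.23 in AKR/J and 5.45 and 5.66 in C57BL/6J, against 5.16 in 129, 4.92 in BALB/cJ and 5.23 in C3H. A/J and AKR/J stood well above every other mouse, and C57BL/6J only slightly above the resistant mice. The difference of 1.65 ± 0.15 (3.14-fold, adjusted p = 3.4e-05) kept its call with any WT mouse left out (1.29 to 1.71). The pseudogene Nlrp1c-ps had another order, with 7.66 and 7.60 in C57BL/6J and 6.05 to 6.48 in the other 5 mice (0.57 ± 0.25, adjusted p = 0.42). Since the Nlrp1 copies are alike and strains carry different sets of them, a probe set can read more than 1 copy. C4b, a complement component, read 10.93 in A/J, 9.92 in AKR/J and 10.84 and 10.58 in C57BL/6J, against 10.06 in 129, 10.27 in BALB/cJ and 9.15 in C3H. C3H was the lowest, and without it the difference of 0.70 ± 0.10 (adjusted p = 0.0024) was 0.36 (adjusted p = 0.20). The 3 chains of C1q differed by 0.39 to 0.52 (adjusted p of 0.085 to 0.12). H2-Q5, an MHC class I gene, read 11.15 in A/J, 10.95 in AKR/J and 11.13 and 11.02 in C57BL/6J, against 10.20 in 129, 10.55 in BALB/cJ and 10.61 in C3H, without overlap (0.60 ± 0.12, adjusted p = 0.027). Its call was lost without the 129, the A/J or the first C57BL/6J mouse (adjusted p up to 0.19). Of 16 MHC class I and processing genes it alone was called, and of 12 class II genes 0 were called, with 1 at an unadjusted p under 0.05, although 7 of the 12 varied among the strains. Ccl19, the CCR7 ligand made by stromal cells of lymphoid tissue, read 10.23 in A/J, 10.93 in AKR/J and 10.57 and 10.58 in C57BL/6J, against 9.25 in 129, 9.93 in BALB/cJ and 10.11 in C3H. The sets did not overlap, and the difference of 0.81 ± 0.13 (adjusted p = 0.0046) was 0.56 without the 129 mouse (adjusted p = 0.13). It was the only called gene of 27 chemokines and receptors, and Cxcl13, another product of lymphoid stroma, differed by 0.30 ± 0.35 (adjusted p = 0.86).

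Few markers of leukocytes were called. Chil3, a chitinase-like protein that alveolar macrophages secrete in bulk, read 4.91 in A/J, 9.14 in AKR/J and 10.03 and 10.19 in C57BL/6J, against 10.84 in 129, 10.26 in BALB/cJ and 9.82 in C3H. A/J was near the bottom of the array's range and the other 6 mice overlapped, so the difference of -2.25 ± 0.46 (adjusted p = 0.029) was -0.68 without the A/J mouse (adjusted p = 0.69). The call was also lost without the 129 or either C57BL/6J mouse. It was the only called gene of 10 alveolar macrophage markers, whose median was -0.14, with 1 of the 10 above 0 and 2 at an unadjusted p under 0.05. The mean level of the 10, Chil3 included, was 9.25 in A/J, 9.56 in AKR/J and 9.63 and 9.62 in C57BL/6J, against 9.80 in 129, 9.72 in BALB/cJ and 10.09 in C3H, and the sets did not overlap. That separation depended on the low Chil3 value of the A/J mouse and does not describe the other markers. Among 15 genes of monocytes and interstitial macrophages, 8 of dendritic cells, 15 of neutrophils and 16 of B cells, 0 were called in limma, with 4, 0, 2 and 0 at an unadjusted p under 0.05. Of 18 T and NK cell genes only the inhibitory receptor Ctla4 was called, at -0.41 ± 0.07 (adjusted p = 0.0097, and 0.15 without the 129 mouse). Of 16 mast cell, basophil and eosinophil genes only Ms4a2, a chain of the IgE receptor, was called, at -0.42 ± 0.07 (adjusted p = 0.0066, and 0.17 without the 129 mouse). Ms4a2 read 4.97 to 5.06 in the prone and 5.24 to 5.69 in the resistant mice, in the lowest part of the scale, where 19 of the 100 called genes had their mean level in the bottom 25% of genes.

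Among the genes lower in the prone strains were receptors known from nerve and muscle. Htr2b, the serotonin receptor of fibroblasts and smooth muscle, read 7.19 in A/J, 6.67 in AKR/J and 6.89 and 7.09 in C57BL/6J, against 8.22 in 129, 7.38 in BALB/cJ and 9.10 in C3H. The sets did not overlap, with C3H far above and BALB/cJ just above the prone mice. The difference of -1.28 ± 0.12 (2.43-fold, adjusted p = 3.4e-05) kept its call with any WT mouse left out (-1.71 to -0.85). Vipr2, a receptor of vasoactive intestinal peptide, read 9.50 in A/J, 9.19 in AKR/J and 10.28 and 10.12 in C57BL/6J, against 10.70 in 129, 10.03 in BALB/cJ and 10.22 in C3H. C57BL/6J overlapped with BALB/cJ and C3H. The WT difference was -0.69 ± 0.12 (adjusted p = 0.0085), and -1.26 ± 0.08 in TG mice (adjusted p = 1e-07), whose sets did not overlap. The WT call was lost without the 129 mouse (-0.50, adjusted p = 0.16) or the AKR/J mouse (-0.47, adjusted p = 0.074). These were the 2 called genes among 22 G protein-coupled receptors of lung muscle and nerve (median -0.08, 8 at an unadjusted p under 0.05). The mean level of the 22, Htr2b and Vipr2 included, was 9.20 to 9.30 in the prone and 9.37 to 9.38 in the resistant mice. That separation depended on these 2 called genes and does not describe the other members.

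Cntn1, a contactin adhesion molecule of neurons, read 6.82 in A/J, 6.74 in AKR/J and 6.29 and 6.54 in C57BL/6J, against 9.41 in 129, 7.64 in BALB/cJ and 8.66 in C3H. All 3 resistant mice lay above the prone mice, and the difference of -1.92 ± 0.22 (3.77-fold, adjusted p = 0.00032) kept its call with any WT mouse left out. Grik3, a kainate receptor subunit, read 6.79 in A/J, 6.97 in AKR/J and 6.77 and 6.73 in C57BL/6J, against 7.49 in 129, 7.56 in BALB/cJ and 7.89 in C3H, without overlap (-0.81 ± 0.10, adjusted p = 0.00078). Glrb, the beta subunit of the glycine receptor, read 7.34 in 129 and 7.17 in C3H but 5.62 in BALB/cJ, just under the prone range of 5.63 to 5.87 (-0.94 ± 0.10, adjusted p = 0.0003). Arsj, a sulfatase of the arylsulfatase family, read 7.69 to 7.87 in the prone and 8.40 to 8.85 in the resistant mice (-0.90 ± 0.15, adjusted p = 0.0077). Bcl2l1, which encodes the survival protein Bcl-xL, read 9.81 in A/J, 10.08 in AKR/J and 10.06 and 10.03 in C57BL/6J, against 10.64 in 129, 10.57 in BALB/cJ and 10.25 in C3H (-0.51 ± 0.07, adjusted p = 0.0023). Dach1, a transcriptional cofactor, read 9.87 to 10.04 in the prone and 10.23 to 10.50 in the resistant mice (-0.43 ± 0.07, adjusted p = 0.0074). Grik3, Glrb, Arsj, Bcl2l1 and Dach1 kept their calls with any WT mouse left out. Zfp605, a zinc finger gene, read 7.66 in BALB/cJ and 7.92 in C3H, but 6.42 in 129, just above the prone range of 6.19 to 6.41 (-1.07 ± 0.20, adjusted p = 0.015). Its call was lost without the BALB/cJ or the C3H mouse (adjusted p up to 0.15). Esr2, the estrogen receptor beta, read 7.49 to 7.93 in the prone and 8.21 to 8.52 in the resistant mice (-0.60 ± 0.11, adjusted p = 0.02, and 0.12 without the 129 mouse).

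Endothelial and platelet genes gave 3 of the lower calls. Esm1, a proteoglycan secreted by endothelial tip cells, read 7.68 in A/J, 9.37 in AKR/J and 7.57 and 7.69 in C57BL/6J, against 8.95 in 129, 8.89 in BALB/cJ and 8.68 in C3H. AKR/J was the highest of all, and the other 3 prone mice were the lowest. The difference of -0.61 ± 0.12 (adjusted p = 0.017) was -1.18 without AKR/J, and its call was lost without the 129 or the A/J mouse (adjusted p up to 0.29). Gpihbp1, which holds lipoprotein lipase on capillaries, differed by -0.29 ± 0.06 (adjusted p = 0.041). Its call was lost without the 129, BALB/cJ, C3H or either C57BL/6J mouse (adjusted p up to 0.17). The 17 endothelial markers had a median of -0.02. Gp5, a platelet surface glycoprotein, read 8.01 in A/J, 7.83 in AKR/J and 8.01 and 7.74 in C57BL/6J, against 8.77 in 129, 8.74 in BALB/cJ and 8.07 in C3H (-0.62 ± 0.10, adjusted p = 0.0067, and 0.082 without the 129 mouse). It was the only called gene of 13 platelet genes, whose median was -0.23, with 2 above 0 and 5 at an unadjusted p under 0.05. The BALB/cJ mouse held the highest mean of this list, as given above. Ppbp, an abundant platelet chemokine, read 7.87 in the 129 mouse, in which Gp5 was highest, and 12.58 in the BALB/cJ mouse.

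**Figure D2:**
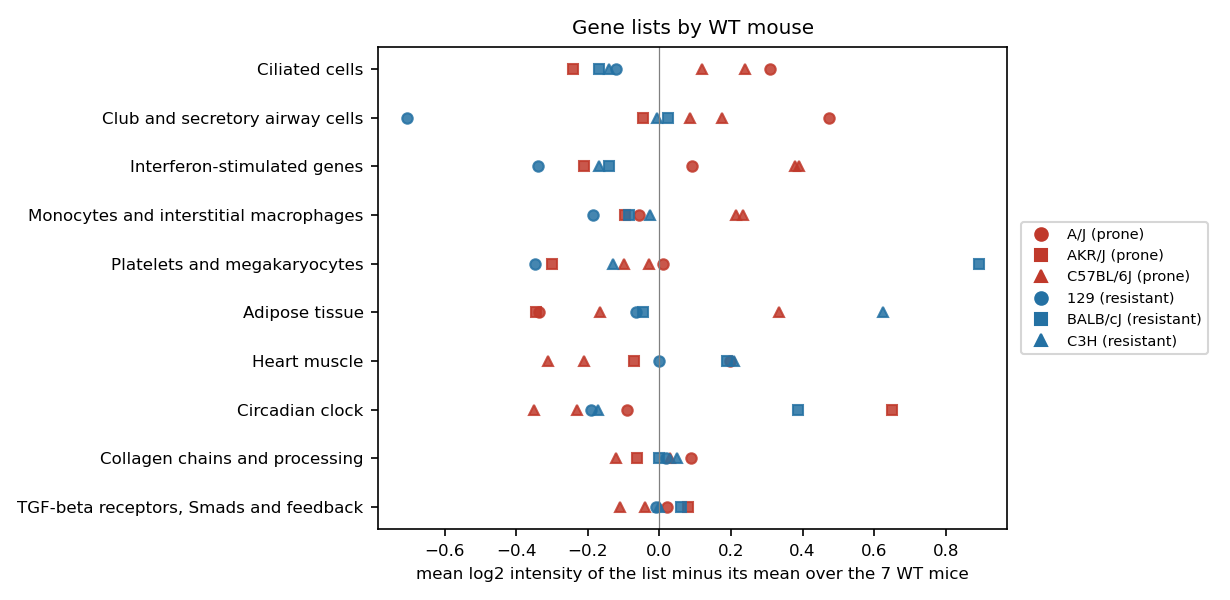
Mean log2 intensity of 10 gene lists in each of the 7 WT mice, minus the mean of the 7 mice. Red symbols are prone and blue symbols resistant mice. The collagen list spans 9.32 to 9.53 over the 7 mice. The BALB/cJ mouse stands out in platelet genes (9.80), the 129 mouse in airway secretory genes (10.32) and AKR/J in clock genes (10.46).

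The lists of matrix genes and of the TGF-β, BMP and Wnt pathways held no call in WT mice. Called lower outside them were Cemip2, which degrades hyaluronan (-0.61, adjusted p = 0.0021, and 0.35 without the A/J mouse), and Chst14, a sulfotransferase of proteoglycan chains (-0.25, adjusted p = 0.039, lost without the 129, BALB/cJ or either C57BL/6J mouse). Of 10 TGF-β ligands and activators, 13 receptors, Smads and feedback genes, 15 BMP genes, 16 Wnt genes, 21 collagen and collagen-processing genes, 21 genes of elastic fibres and proteoglycans and 19 proteases and inhibitors, 0 were called in limma, with 1, 1, 1, 2, 2, 4 and 2 at an unadjusted p under 0.05. Their median differences lay between -0.06 and 0.04. Proteases outside these lists were called, among them Ctse (-1.51), Adam28 (0.88), Adamdec1 (0.72) and Adam17 (-0.31), which are described below. Col1a1 differed by 0.03 ± 0.11 (adjusted p = 0.97) and Col3a1, the other main fibrillar chain, by 0.11 ± 0.09 (adjusted p = 0.76). Tgfbr1, the type I receptor, differed by -0.21 ± 0.08 (adjusted p = 0.29). Tgfb2 read 9.66 to 10.11 in the prone and 9.96 to 10.14 in the resistant mice (-0.24 ± 0.10, adjusted p = 0.36). Itgb6, the integrin chain that activates latent TGF-β in epithelium, read 9.79 to 10.77 in the prone and 10.06 to 11.01 in the resistant mice (-0.19 ± 0.11, adjusted p = 0.61). Wif1, an inhibitor of Wnt, read 9.32 in BALB/cJ and 7.18 to 7.79 in the other 6 mice (-0.59 ± 0.14, adjusted p = 0.054). Mfap2, a microfibril protein of elastic fibres, differed by 0.36 ± 0.08 (adjusted p = 0.052), and 10.35 in the 129 mouse was its lowest value. A p above the threshold does not show that the sets were equal. On simulated data, with 50 changed genes of each size among the 13499, 22% of differences of 0.25, 72% of 0.5 and 98% of 1 were called. There 9 unchanged genes were called too. The simulation gave all 4 prone WT mice the same shift, had no other difference among strains and used normal noise of each gene's fitted spread. Its rates describe that setting, which is simpler than the data.

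Metabolic lists held 1 call. Gstm6, a glutathione transferase, read 7.43 in A/J, 7.28 in AKR/J and 7.12 and 6.89 in C57BL/6J, against 6.44 in 129, 6.68 in BALB/cJ and 6.38 in C3H. The sets did not overlap, and the difference of 0.74 ± 0.09 (adjusted p = 0.00067) kept its call with any WT mouse left out. Its relative Gstm2 differed by -0.39 ± 0.17 (adjusted p = 0.42). Among 25 cytochrome P450, flavin and aldehyde enzymes, 16 retinoid genes and 35 genes of lipid metabolism 0 were called in limma, with 3, 1 and 3 at an unadjusted p under 0.05. Lrat, the enzyme that stores retinol as esters, read 12.21 in A/J, 12.47 in AKR/J and 11.32 and 11.52 in C57BL/6J, against 12.31 in 129, 11.70 in BALB/cJ and 12.14 in C3H (-0.02 ± 0.25, adjusted p = 0.99). Neither the 28 cell cycle genes, 26 of which were higher in prone TG mice, nor the 11 clock genes held a call in WT mice (2 and 2 at an unadjusted p under 0.05). In all, 657 of 1041 listed genes were measured, 18 of them were called, 10 higher and 8 lower, and 25 of the 41 lists had 0 calls.

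Strains of a set did not always go together. Sox11, a transcription factor of progenitor cells, read 8.83 and 9.46 in C57BL/6J, and 7.14 in A/J and 7.0 in AKR/J against 6.74 to 7.02 in the resistant mice (0.85 ± 0.14, adjusted p = 0.006). Unc5a, a netrin receptor, read 7.99 and 8.08 in C57BL/6J, and 6.93 in A/J and 6.91 in AKR/J against 6.55 to 6.87 in the resistant mice (0.60 ± 0.07, adjusted p = 0.0003). Both kept their calls with any WT mouse left out, but C57BL/6J had 2 WT mice and was never left out whole. Ctse, the aspartic protease cathepsin E, read 7.53 in A/J, 7.74 and 7.62 in C57BL/6J and 9.88 in AKR/J, against 10.33 in 129, 9.92 in BALB/cJ and 9.36 in C3H, so that AKR/J sat with the resistant strains. Its difference was -1.51 ± 0.25 (adjusted p = 0.0074), -2.27 without AKR/J, and its call was lost without the 129 or the A/J mouse (adjusted p up to 0.079). Adam28, a membrane metalloprotease, read 9.04 in A/J, 8.33 in AKR/J and 9.26 and 9.13 in C57BL/6J, against 7.77 in 129, 8.36 in BALB/cJ and 7.79 in C3H (0.88 ± 0.14, adjusted p = 0.0046). Its neighbour Adamdec1, a related protease, differed by 0.72 ± 0.16 (adjusted p = 0.041), and its call was lost without the 129, the A/J, the C3H or either C57BL/6J mouse (adjusted p up to 0.18). Hsd3b2, a steroid dehydrogenase, read 7.22 in A/J, 5.59 in AKR/J and 5.13 and 4.97 in C57BL/6J, against 7.88 in 129, 6.57 in BALB/cJ and 6.80 in C3H, so that A/J lay among the resistant mice (-1.13 ± 0.20, adjusted p = 0.01, and 0.25 without the 129 mouse).

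Further genes of largest difference without overlap belonged to no list. Dubr, a long noncoding RNA, read 10.93 in A/J, 10.59 in AKR/J and 10.50 and 10.67 in C57BL/6J, against 9.40 in 129 and 10.18 in each of BALB/cJ and C3H (0.78 ± 0.11, adjusted p = 0.0017). Sp6, a zinc finger transcription factor of epithelial and tooth development, read 7.43 in A/J, 7.50 in AKR/J and 7.03 and 7.05 in C57BL/6J, against 6.27 in 129, 6.94 in BALB/cJ and 6.79 in C3H (0.66 ± 0.09, adjusted p = 0.0017). Kcnh1, a voltage-gated potassium channel, read 8.69 to 9.19 in the prone and 7.92 to 8.62 in the resistant mice (0.61 ± 0.11, adjusted p = 0.011). In all 3 genes the 129 mouse was the lowest, and without it the differences were 0.52, 0.46 and 0.41 (adjusted p = 0.084, 0.072 and 0.24). Slc45a4, a solute carrier, read 9.56 to 9.77 in the prone and 10.02 to 10.19 in the resistant mice (-0.43 ± 0.07, adjusted p = 0.0074). Snrpe, a core protein of the spliceosome, read 9.76 in A/J, 9.41 in AKR/J and 9.61 and 9.67 in C57BL/6J, against 10.58 in 129, 10.01 in BALB/cJ and 10.11 in C3H (-0.63 ± 0.13, adjusted p = 0.032). Its call was lost without the 129, the AKR/J or either C57BL/6J mouse (adjusted p up to 0.27). Tekt5, a tektin of sperm flagella, read 8.64 to 9.26 in the prone and 9.30 to 9.54 in the resistant mice (-0.55 ± 0.11, adjusted p = 0.031), the opposite direction to the cilia genes above. Its call was lost without the 129, the A/J, the AKR/J or the first C57BL/6J mouse (adjusted p up to 0.15).

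Counted over the 55 higher genes, the strain mean lay beyond every strain of the opposite set in 51 for A/J, 51 for C57BL/6J and 30 for AKR/J, and in 45 for 129, 44 for C3H and 36 for BALB/cJ. Over the 45 lower genes these counts were 35 for A/J, 35 for AKR/J and 34 for C57BL/6J, and 42 for 129, 36 for C3H and 29 for BALB/cJ. The 129 mouse was the lowest of the 6 strains in 33 of the 55 higher genes and the highest in 29 of the 45 lower genes, including Cntn1, Glrb, Vipr2 and Bche. All these counts use the WT values that picked the genes, so they are partly built in and are no separate support. How often each strain lay so far out over all measured genes was not counted. Bche, butyrylcholinesterase, read 9.60 in 129, 8.07 in BALB/cJ and 8.89 in C3H, and 7.62 to 8.32 in the prone mice (-0.92 ± 0.20, adjusted p = 0.048). Without 129 it was -0.54 (adjusted p = 0.50), and the call was also lost without the AKR/J, the C3H or either C57BL/6J mouse.

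**Figure D3:**
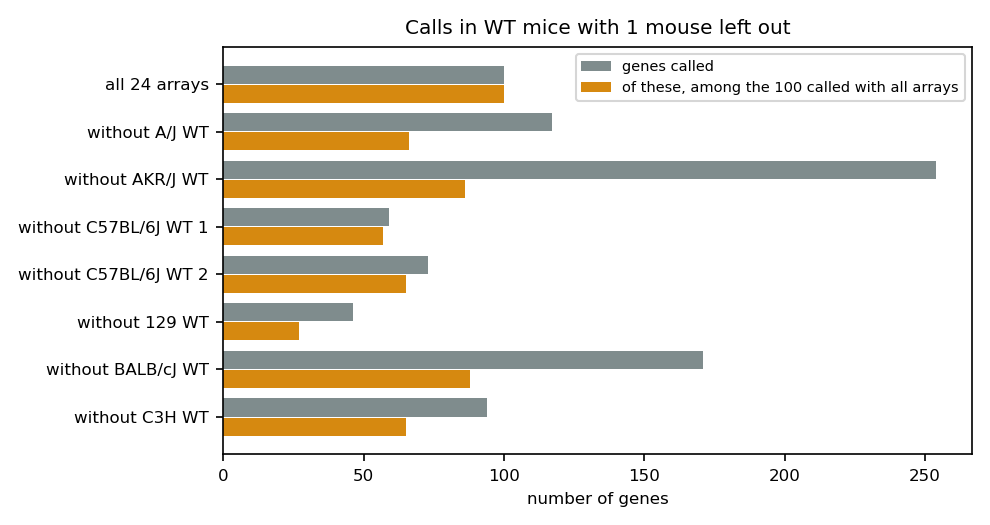
Number of genes called in WT mice with all 24 arrays and with each WT mouse left out (grey), and how many of the 100 genes called with all arrays are among them (orange). The count falls to 46, with 27 of the 100, without the 129 mouse, and reaches 254, with 86 of the 100, without the AKR/J mouse.

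Leaving out the 129 mouse gave 46 calls, 27 of them among the 100. Leaving out AKR/J gave 254 calls, 86 of them among the 100. Leaving out BALB/cJ gave 171 (88 among the 100), A/J 117 (66), C3H 94 (65), and the first or second C57BL/6J mouse 59 (57) or 73 (65). All 100 genes had the same sign each time. Called with every WT mouse left out in turn were 20 genes. The 12 higher ones were AI506816, Nlrp1a, Ifi206, Adam28, Sox11, Gstm6, Unc5a, 9130008F23Rik, Bpifb5, Rps2, Apobec3 and Itgb1bp1. The 8 lower ones were Cntn1, Htr2b, Glrb, Arsj, Grik3, Bcl2l1, Dach1 and the solute carrier Slc45a4.

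Prone and resistant strains were then compared in the TG mice, whose samples are separate from the WT mice but of the same 6 strains. In TG mice 1503 genes (11.1%) were called, 870 higher (6.44%) and 633 lower (4.69%), and of the 100 genes called in WT mice 87 had the same sign there and 61 were called the same way (28 higher and 33 lower), which is 61.0% of the WT list and 4.06% of the TG list. The share of all genes with the same sign was not counted. The WT and TG comparisons share no array but use the same estimate of each gene's spread, so their calls are not fully separate. The median size of the difference over the 100 genes was 0.27 in TG mice and 0.54 in WT mice, where the genes had been picked for their size. Not called in TG mice were 38 genes, 27 of the 55 higher and 11 of the 45 lower ones, and 1 gene, Cstad, was called the opposite way (0.20 in TG, -0.46 in WT mice). The TG sets did not overlap in 4 of the 100 genes, Nlrp1a, Sp6, Mcfd2 and Vipr2, and in 17 of all 13499 (0.126%). In Nlrp1a and Sp6 the WT sets did not overlap either, with prone mice above in both genotypes, while those of Mcfd2 and Vipr2 overlapped.

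**Figure D4:**
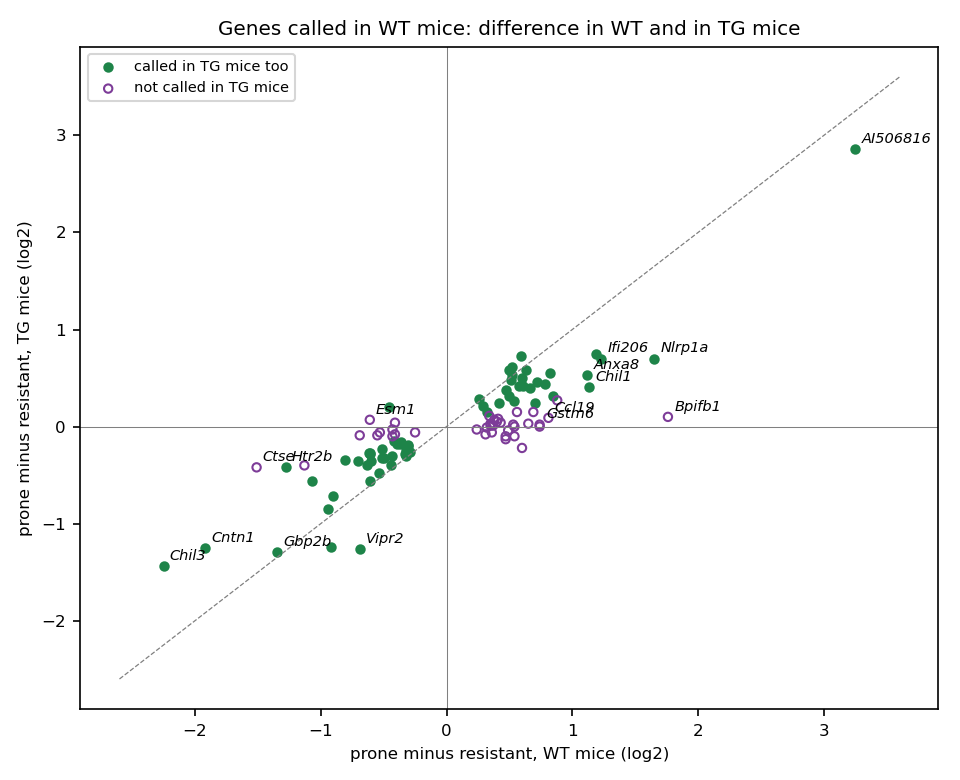
Prone minus resistant difference (log2) in WT mice (x axis) and in TG mice (y axis) for the 100 genes called in WT mice. Filled green points were also called in TG mice, 1 of them (Cstad) with the opposite sign, open purple points were not, and the dashed line marks equal differences. AI506816 lies near the line (3.25 and 2.86), Bpifb1 far under it (1.76 and 0.10).

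The difference between the WT and the TG contrast was itself called for 64 genes (0.474%), 14 of them among the 100. The WT values that picked the 100 genes also enter this contrast, so the 14 are no separate support. Bpifb1 had a median of 11.77 (9.93 to 12.67) in prone TG and 11.46 (10.40 to 11.99) in resistant TG mice, a difference of 0.10 ± 0.18. The WT difference was larger by 1.66 ± 0.33 (adjusted p = 0.039). Chil1 had a median of 13.93 (13.82 to 14.21) in prone TG and 13.64 (13.01 to 13.91) in resistant TG mice, and its TG difference of 0.41 ± 0.07 was smaller than the WT difference by 0.72 ± 0.12 (adjusted p = 0.031). In the strain 129, Chil1 read 11.32 in the WT mouse and 13.01 to 13.22 in the TG mice. Bpifb1 read 9.37 in that WT mouse and 11.46 to 11.72 in the TG mice of 129. Htr2b had a median of 7.31 (6.64 to 7.93) in prone TG and 7.91 (6.91 to 8.51) in resistant TG mice, and its difference of -0.42 ± 0.07 was nearer to 0 than in WT mice by 0.87 (adjusted p = 0.018, WT minus TG -0.87 ± 0.14). Nlrp1a differed by 0.70 ± 0.10 in TG mice (WT minus TG 0.95 ± 0.18, adjusted p = 0.039), Gstm6 by 0.02 ± 0.06 (0.71 ± 0.11, adjusted p = 0.015), Ccl19 by 0.09 ± 0.08 (0.73 ± 0.15, adjusted p = 0.04) and H2-Q5 by -0.22 ± 0.08 (0.83 ± 0.14, adjusted p = 0.03). In Lrat the sets lay apart in TG mice and not in WT mice, with a median of 10.66 (9.25 to 11.19) in prone TG and 11.81 (11.24 to 12.45) in resistant TG mice (-1.41 ± 0.15, adjusted p = 2.9e-05, WT minus TG 1.39 ± 0.29, adjusted p = 0.043). Racgap1 and Knstrn, which act in cell division, were higher in prone TG mice by 0.63 and 0.69 and differed by -0.23 and -0.17 in WT mice (WT minus TG -0.85 and -0.87, adjusted p = 0.018 for each). Vipr2 differed in both genotypes, and the change of its difference was 0.57 ± 0.14 (adjusted p = 0.081). The count of 64 was 14 to 192 with 1 WT mouse left out, 14 without the first C57BL/6J mouse and 192 without AKR/J. Single genes were not followed through these settings for this contrast.

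**Figure D5:**
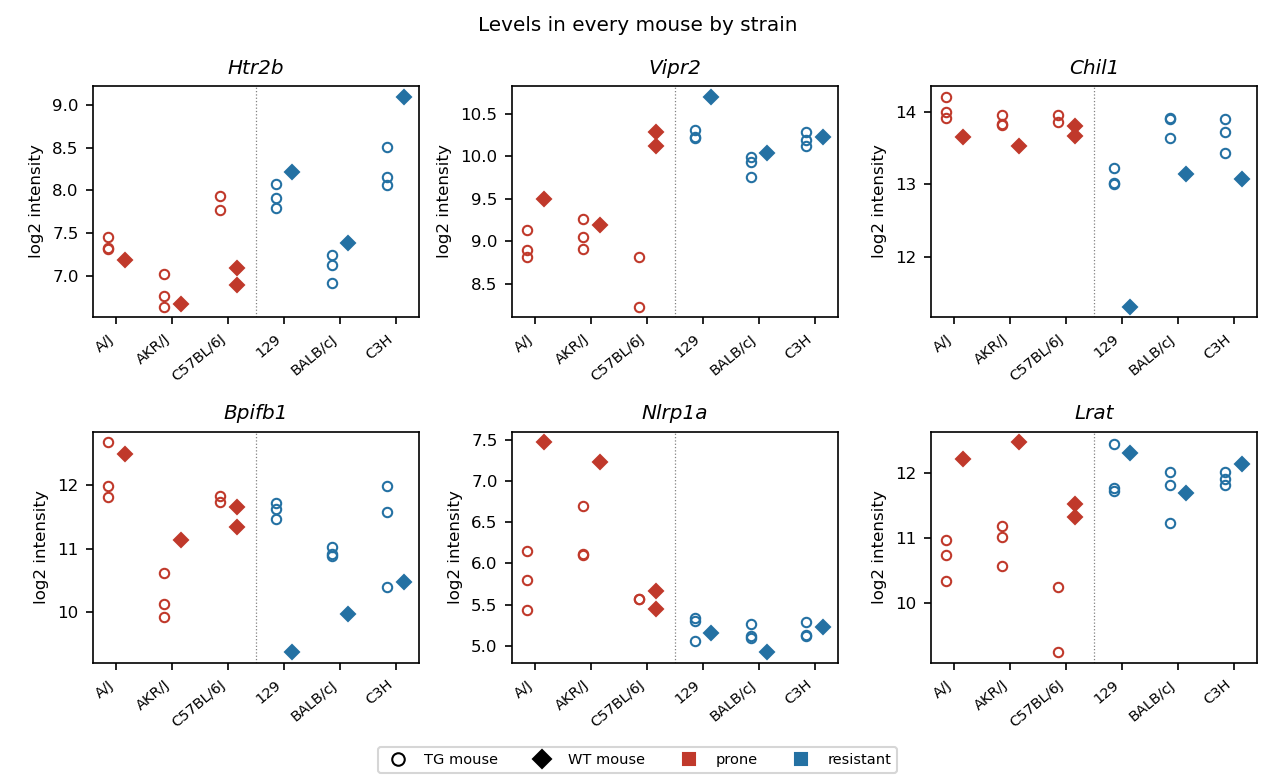
Log2 intensity of 6 genes in every mouse, by strain, with prone strains (red) left of resistant strains (blue), TG mice as open circles left of WT mice as filled diamonds, and a scale of its own for each gene. The WT 129 mouse is the lowest mouse for Chil1 (11.32) and for Bpifb1 (9.37), and prone and resistant TG mice lie apart for Lrat, Vipr2 and Nlrp1a.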

How the data were processed

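Whole-transcript arrays were hybridised with biotin-labelled target made with the Ambion WT Expression kit, per the labels' protocols. The deposited values are log2 intensities, read as such from their range of 3.41 to 14.75. The sources used here give no log base, normalisation method, software or genome build, and the values were not scaled again. Array number limits the precision: 5 of 6 strains had 1 WT mouse. Nothing beyond the labels' sample numbers says that replicates are separate mice, so p-values measure the spread between these samples.

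The table was held in part. Of 25285 probe sets, 1 with 2 values was left out, and 14539 had 1 gene symbol, 781 several and 9964 none. Of the 14539, 14480 matched RefSeq by Entrez identifier. The probe set of highest mean stood for each of 590 genes with several, which left 13499 genes. Chromosome 5 was covered at 26.3%, chromosomes 6 to 9 and X at 2.0% or less, and the other autosomes at 76.1% to 91.7% of RefSeq's protein-coding genes. Genes elsewhere, Tgfb1 and sex-linked genes among them, were not analysed here. Sequence variants between strains and similar gene copies (H2-Q, Nlrp1, Ifi, Gstm, Chil, Pcdhb) can change what a probe set reads.

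A fit with 12 group means (strain by genotype) was made with limma 3.58.1 in R 4.3.3 (lmFit, eBayes, two-sided, 12 residual degrees of freedom), which takes a strain's only WT mouse to vary as much as mice of other groups do. Contrasts were prone minus resistant in WT mice, the same in TG mice, and the first minus the second, with strains weighted equally. p-values were adjusted over all 13499 genes by Benjamini and Hochberg's method, and a gene is called under 0.05. The script was tested on simulated data. Tables, motif searches and plots used Python 3.11.15, pandas 2.3.3 and matplotlib 3.10.9.

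Lists were described by counts and medians, with no list test. The named genes are the 15 largest called differences each way without overlap, the 6 largest each way with overlap, up to 4 members of each described list, 12 genes singled out earlier or used to check strains (such as Htr2b, Lrat and H2-Ea), and the 4 largest called differences each way between WT and TG. Bpifb5, Apobec3, Mcfd2, Chst14, Adamdec1, Cstad, the cilia genes outside the lists and the genes of the closing observations were chosen after their values were seen, and other genes named are members of the lists. The members, lists and rule were chosen with earlier results of these data known. Alternatives were other scalings, a filter on low genes, the mean of probe sets, other variance settings, array weights, a replicate block, other units of weight and leaving out each WT mouse.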

Additional observations from a re-analysis of the deposited data

Results flagged for a closer look

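Among 195 named genes, the 4 prone WT mice were searched for 1 mouse far from the other 3, by the gap to the nearest mouse over the whole range (Dixon's 95% limit for 4 values). Chance sets off this rule in about 1 of 20 groups of like samples. The prone mice are of different strains, so that rate does not hold here. Since 2 of them are C57BL/6J, a mouse of that strain mostly has its strain mate near it and can seldom stand apart. In all 16 were found, 8 in AKR/J, 7 in A/J and 1 in C57BL/6J. AKR/J stood apart in Ctse (9.88), Esm1 (9.37), Hspb1 (12.34), Mcm6 (7.59), Myh2 (6.46), Rps20 (13.01), Scgb3a1 (12.33) and Serpina3n (10.27). A/J stood apart in Adamts1 (10.19), Adh7 (8.06), Ccl3 (7.9), Cyp4a12b (8.48), Ednrb (11.35), Slc4a1 (8.97) and Wnt4 (8.32). The second C57BL/6J mouse stood apart in Pck1 (8.29), a gene of the adipose list. Of these, Ctse and Esm1 were among the 100 called genes, and in Ctse AKR/J lay within the range of the resistant mice, while in Esm1 it lay above all of them.

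In 17 named genes the WT difference and the TG difference themselves differed in limma. The named genes were picked in part by their WT difference or by this contrast, so the 17 are no separate support. The WT minus TG value was above 0 in Bpifb1 (1.66), Lrat (1.39), 1810010H24Rik (1.09), Gsta3 (1.03), Nlrp1a (0.95), H2-Q5 (0.83), Ccl19 (0.73), Chil1 (0.72) and Gstm6 (0.71). It was below 0 in Htr2b (-0.87), Knstrn (-0.87), Racgap1 (-0.85), Nrcam (-0.83), Esm1 (-0.69), Itgb6 (-0.63), Ctla4 (-0.44) and Slc45a4 (-0.40). Gsta3, a glutathione transferase, was lower in prone TG mice (-0.81 ± 0.11, adjusted p = 0.00012) and differed by 0.22 ± 0.17 in WT mice (adjusted p = 0.74). Nrcam, a neural adhesion molecule, was higher in prone TG mice (0.92 ± 0.09, adjusted p = 1.2e-05) and differed by 0.08 ± 0.15 in WT mice (adjusted p = 0.93).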

How the results depend on the processing

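The 100 calls in WT mice were 84 to 118 under median centring, quantile normalisation, a filter on low genes, the mean of probe sets and a trended robust variance. They were 193 with array weights, 200 with each WT mouse weighted equally, 0 with strain means as the unit or with the 7 WT arrays alone, and 46 to 254 with 1 WT mouse left out. The 64 genes whose WT and TG differences differed were 289 with array weights and 14 to 192 with 1 mouse left out. Genes that vary among strains (736) were 1290 with array weights and 396 to 786 with 1 mouse left out. Genes called the same way in WT and TG (61) were 98 with array weights and 24 to 99 with 1 mouse left out. The 18 calls among listed genes were 30 with mice weighted equally, 0 with strain means or the WT arrays alone, and 11 to 36 with 1 mouse left out. Of 806 values of the 48 called named genes under alternatives, 622 kept their call, 184 lost it and 0 reversed. H2-Ea, at 0.05, reversed to -0.96 with mice weighted equally, -1.89 without 129, -0.94 without A/J and -0.99 without AKR/J. It was 0.83 without BALB/cJ and 1.2 without C3H, and each of these values, the reversed ones included, passed the test. By construction its sign follows which haplotypes remain and how much weight each has. The causes of the other changes were not tested.

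No paired analysis was possible because the WT groups share only replicate number 1 and nothing says that a number marks a shared litter or day. With the replicate number as a block in the whole fit, limma called 87 genes in WT mice, 79 of them among the 100, and 14 genes for the difference between WT and TG.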

Other observations

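Some called genes lie near each other in the order of measured genes. Within 3 steps there were 7 pairs with 13 genes, and 6 pairs had the same direction. How many such pairs a like number of any genes would give was not counted. On chromosome 18 the protocadherins Pcdhb2, Pcdhb3 and Pcdhb6, adhesion proteins of neurons with closely similar sequences, were lower in prone mice by 0.50, 0.44 and 0.61 on the log2 scale. Pcdhb6 read 6.94 to 7.20 in the prone mice, against 8.34 in 129, 7.78 in BALB/cJ and 7.03 in C3H. The 3 calls were lost without the 129 mouse (-0.36, -0.34 and -0.30), those of Pcdhb3 and Pcdhb6 also without either C57BL/6J mouse, Pcdhb3 without A/J and Pcdhb6 without BALB/cJ. The opposite pair was Itgb1bp1, which binds integrin beta tails (0.34), and Adam17, the protease that releases TNF (-0.31). The call of Adam17 was lost without the 129, the AKR/J or the C3H mouse (adjusted p up to 0.078).

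Other called genes were chosen after their values were seen. Nfkbia, the inhibitor of NF-κB, read 10.66 in A/J, 11.03 in AKR/J and 10.86 and 10.87 in C57BL/6J, against 11.31 in 129, 11.10 in BALB/cJ and 11.27 in C3H (-0.37 ± 0.08, adjusted p = 0.029). Its call was lost without the 129, the A/J, the C3H or either C57BL/6J mouse (adjusted p up to 0.14). Cemip2, a hyaluronan-degrading enzyme of the cell surface, read 9.59 in A/J and 10.66 to 11.12 in the other 6 mice (-0.61 ± 0.09, adjusted p = 0.0021), and -0.23 without A/J (adjusted p = 0.35). Mrtfb, a cofactor of serum response factor, read 10.07 in C3H and 10.98 to 11.57 in the others (0.42 ± 0.08, adjusted p = 0.029), and 0.05 without C3H (adjusted p = 0.90), with the call also lost without the A/J or either C57BL/6J mouse. Pttg1, the securin of mitosis, read 9.58 and 9.76 in C57BL/6J and 7.27 to 7.85 in the other 5 mice (0.59 ± 0.10, adjusted p = 0.0085), and its call was lost without C3H (adjusted p = 0.06).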
